A study of Mus musculus with 18 samples.

Results

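Whole retina and whole brain of the mouse were compared through their input RNA. The input is the part of a cleared tissue lysate that was set aside before any pull-down, so it samples all cells of the tissue. The retina lines the back of the eye and is an outgrowth of the forebrain. Its rods and cones turn light into a graded signal through a light-sensing receptor, the G protein transducin and a cGMP phosphodiesterase, all held in an outer segment, a modified cilium. Photoreceptors and bipolar cells release glutamate without pause at ribbon synapses, and Müller cells, the radial glia of the retina, serve them. Brain tissue is instead dominated by neurons with spines and postsynaptic densities, by astrocytes and by oligodendrocytes, whose myelin is absent from the mouse retina.

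The comparison used 6 of the 18 libraries of the series, 3 retina inputs and 3 brain inputs, read from 1 table per tissue and joined on the gene identifier. All animals carried Tie2-cre, a transgene whose promoter is active in endothelial and blood-lineage cells, together with NuTRAP, an allele that after Cre recombination puts GFP on ribosomes, so both tissues came from mice of 1 genotype and there was no group without these alleles. The column headers of all 6 libraries also carry WT, which the labels do not define. A retina sample pooled 2 retinae and a brain sample came from 0.5 of a brain, per the labels. The sources used here do not give the regions of that part of the brain, nor the sex and age of the mice. Homogenates were spun at 12000 g for 10 min, and 150 µl of the supernatant was kept as input. Libraries carry the numbers 421, 953 and 960 in both tissues, and values below follow that order. Retina had 12369 listed genes and brain had 12919. Of 13670 genes in either, 11618 were in both, and 11611 of these passed the filter on low counts and were tested. Of the others, 751 were listed for retina only and 1301 for brain only. A gene is listed in a tissue where all libraries of at least 1 fraction, input or positive, have a raw value of at least 50.

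Depth over the listed genes was 15243098, 21521130 and 18957074 counts in the retina inputs and 32064355, 26555197 and 9596740 counts in the brain inputs. Levels are CPM, counts scaled to a depth of 1000000, over the genes shared by the tables, with TMM scaling, and are not corrected for transcript length. Across the genes tested, Pearson's r of log2(CPM + 0.5) was 0.993 to 0.994 among retina inputs and 0.996 between brain inputs 421 and 953. Brain input 960 stood apart, with r of 0.894 and 0.896 to the other brain inputs. Its deviation from the mean of the brain inputs fell with transcript length (r = -0.578 over 10115 genes, which share 1 library), and its median log2 ratio to the mean of the other brain inputs was 0.71 among the 2531 genes with the shortest transcripts and -0.53 among the 2529 with the longest, out of 4 groups by length. Counts of list members that moved by over 1.5 times when this or any other library was left out are given both ways.

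**Figure D1:**
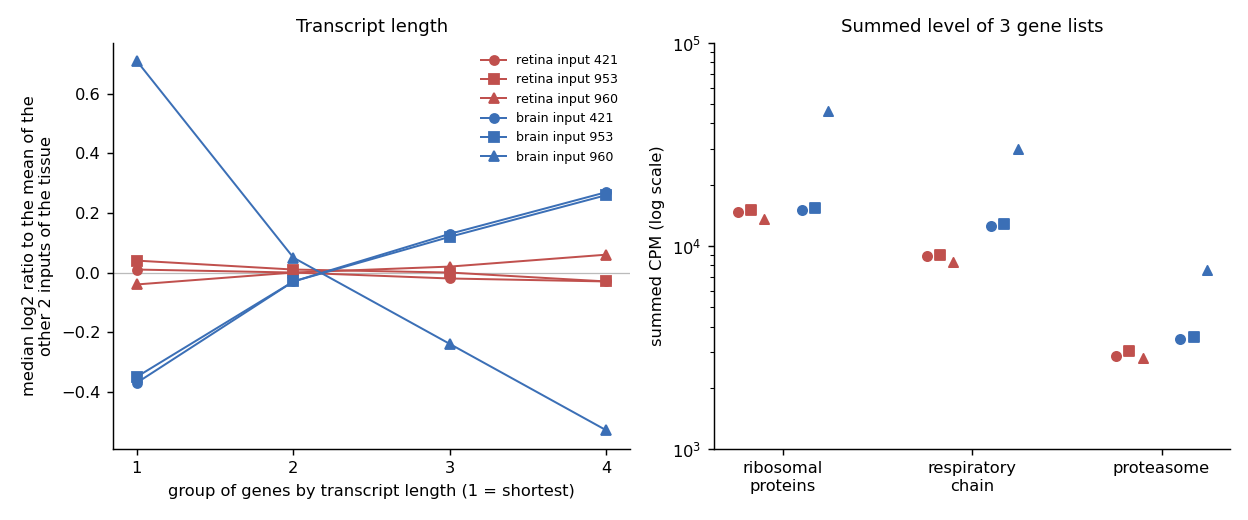
Left, median log2 ratio of each input library to the mean of the other 2 inputs of its tissue, for 4 groups of genes ordered by transcript length: brain input 960 runs from 0.71 to -0.53, while the retina inputs stay between -0.04 and 0.06. Right, summed CPM on a log scale of the tested members of 3 housekeeping lists in each library, retina inputs left of brain inputs: brain input 960 is the highest point of all 3 lists.

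Retina and brain inputs differed in 56.3% of the genes tested. With edgeR's quasi-likelihood test and Benjamini-Hochberg adjustment over all 11611 genes, the test behind every adjusted p below, 3187 genes (27.4%) were higher in retina and 3346 (28.8%) lower at an adjusted p under 0.05. At least 2-fold, 1780 (15.3%) were higher and 2140 (18.4%) lower, and at least 4-fold 506 (4.36%) and 745 (6.42%). The retina inputs did not overlap the brain inputs in 8281 genes (71.3%). The median log2 fold change of all genes, retina minus brain, was -0.08. Without brain input 960, 4840 genes (41.7%) were higher and 4699 (40.5%) lower, while 1792 and 2016 passed both the test and 2-fold, and the median was 0.02. Counts of list members below are to be read against these shares, which are large. The lists are knowledge of cell types and pathways, not chosen by how the genes moved, but they were written with earlier results of these data known. In whole tissue, fewer cells of a type and less RNA per cell cannot be told apart.

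The tissue labels were checked against marker genes. Mbp, which encodes myelin basic protein, had 47.05, 50.4 and 47.6 CPM in the retina inputs, against 2246, 2494 and 2432 CPM in the brain inputs (log2 fold change -5.63 ± 0.12, adjusted p = 8.24e-06). The lowest brain input was 44.6 times the highest retina input. Snap25, a fusion protein of nerve terminals, was abundant in both tissues, with 1563, 1556 and 1576 CPM in the retina inputs, against 2588, 2642 and 3036 CPM in the brain inputs, and was lower in retina (log2 fold change -0.82 ± 0.10, adjusted p = 0.00104). Pax6 and Otx2, transcription factors of eye development that stay on in the adult retina, were higher in retina by log2 fold changes of 3.23 ± 0.12 and 5.21 ± 0.13. Gfap, the intermediate filament of astrocytes, had 13.9, 18.5 and 27.6 CPM in the retina inputs, against 337, 333 and 233 CPM in the brain inputs (log2 fold change -3.91 ± 0.31, adjusted p = 0.000169). Rpe65, the isomerase of the pigment epithelium behind the retina, was listed for retina only, at 7.42, 7.14 and 11.1 CPM. Ttr, a secreted carrier made by the choroid plexus and the pigment epithelium, was lower in retina (log2 fold change -3.90 ± 0.46, adjusted p = 0.000719; -3.31 ± 0.11 without brain input 960).

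Photoreceptor genes were mostly listed in the retina table alone. Of 46 genes of rod phototransduction and the outer segment, 32 were listed for retina only, 14 were in both tables and none (0) was listed for brain only. A gene missing from the brain table had under 50 counts in at least 1 brain input, which is 1.56 to 5.21 CPM there, depending on the library. CPM of such genes is over all genes of their own table, and no test was possible. Gnat1, the rod transducin alpha subunit, had 9826, 9881 and 9351 CPM in the retina inputs, so the 3 libraries were close to each other. Prph2, a tetraspanin that shapes the disc rim, had 5299, 5111 and 4836 CPM, and Rbp3, a carrier of retinoids between photoreceptors and pigment epithelium, had 4959, 4860.2 and 4807 CPM. Sag, the rod arrestin, had 3317, 3345 and 3102 CPM, and Pde6a and Pde6b, the catalytic subunits of the rod phosphodiesterase, had 2862, 2923 and 2795 CPM and 2071, 2106 and 1898 CPM. Slc24a1, the rod sodium, calcium and potassium exchanger, and Rp1, a microtubule protein of the outer segment, were also among the 10 retina-only genes of highest CPM. Genes of 1 table took 9.93% to 10.3% of the retina counts and 1.55% to 1.61% of the brain counts.

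**Figure D2:**
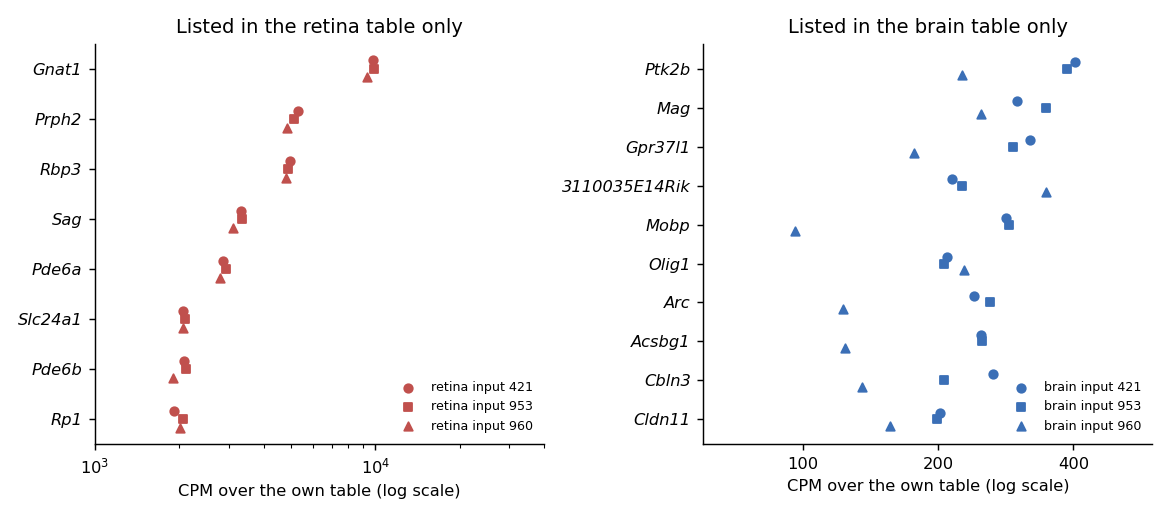
CPM on a log scale, over the own table, of 8 of the 10 genes with the highest mean CPM among those listed for retina only (left) and of the 10 for brain only (right), with 1 symbol per library. The retina-only genes drawn lie at 1898 CPM or above in every retina input, and brain input 960 lies apart from the other brain inputs for most brain-only genes.

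Rod genes that could be tested were higher in retina in 13 of 14 cases, with a median log2 fold change of 5.51 against -0.08 over all genes. Membership in both tables needs counts in brain libraries too, so these 14 are not a sample of rod genes. Grk1, a kinase that ends the light response of photoreceptors, had 3703, 3562 and 3761 CPM in the retina inputs, against 6.70, 6.42 and 6.79 CPM in the brain inputs, and its log2 fold change of 9.11 ± 0.13 (adjusted p = 3.11e-06) was the highest of all tested genes that met the naming rule. Abca4, the flippase that clears retinaldehyde from discs, had 1858, 1800.1 and 1736 CPM in the retina inputs, against 5.95, 5.06 and 6.91 CPM in the brain inputs (log2 fold change 8.25 ± 0.18, adjusted p = 8.24e-06). Rom1, the partner of Prph2 at the disc rim, had 2703, 2689 and 2545 CPM in the retina inputs, against 9.75, 8.83 and 10.9 CPM in the brain inputs (log2 fold change 8.08 ± 0.15, adjusted p = 8.24e-06). The lowest retina input was 525, 251 and 233 times the highest brain input for these 3 genes. Reep6, which shapes the endoplasmic reticulum of rods, and Fam161a, a protein of the connecting cilium, were also among the 15 genes with the highest log2 fold changes, at 7.21 and 6.75. Rgs9, the GTPase activator that ends the transducin signal and that medium spiny neurons of the striatum use as well, had 2809.9, 2812 and 2816 CPM in the retina inputs, against 85.6, 104 and 84.1 CPM in the brain inputs (log2 fold change 4.95 ± 0.14, adjusted p = 1.06e-05). The exception was Slc24a2, the exchanger of cones and of brain neurons, which was lower in retina (log2 fold change -2.04 ± 0.13, adjusted p = 8.2e-05). Of 17 cone genes 10 were listed for retina only and 6 were tested, of which 4 were higher and 2 lower. Gngt2, the cone transducin gamma subunit, was higher with a log2 fold change of 3.90 ± 0.60 (adjusted p = 0.00219) and 4.79 ± 0.13 without brain input 960.

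Other genes at the top of the list have roles outside the light cascade. Kcnj14 encodes an inward rectifier potassium channel and had 931, 1023 and 939.6 CPM in the retina inputs, against 3.24, 3.32 and 8.002 CPM in the brain inputs (log2 fold change 7.71 ± 0.45, adjusted p = 5.62e-05). Mpp4, a scaffold of photoreceptor terminals, had 515, 485 and 493 CPM in the retina inputs, against 1.38, 1.43 and 12.4 CPM in the brain inputs, so that brain input 960 stood far above the other brain inputs while the retina inputs were close to each other. Its log2 fold change was 6.80 ± 1.02 with that library (adjusted p = 0.00197) and 8.47 ± 0.09 without it. Samd11, a regulator of photoreceptor identity, showed the same pattern, with 540.0, 545 and 497 CPM in the retina inputs, against 2.20, 2.04 and 32.1 CPM in the brain inputs, and its log2 fold change was 5.54 with brain input 960 and 7.96 ± 0.09 without it. Grk1 did not show it, as its values above give. Tnfaip3, an inhibitor of NF-kappa B signalling, had 478, 488 and 446 CPM in the retina inputs, against 5.41, 5.47 and 3.27 CPM in the brain inputs (log2 fold change 6.61 ± 0.24, adjusted p = 1.64e-05). Susd3, Llgl2, a polarity protein, and the nuclear receptor Esrrb were higher by log2 fold changes of 6.83, 6.07 and 6.18.

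Photoreceptor genes are known targets of the homeodomain factors CRX and OTX2, which bind TAATCC. Promoter windows of 300 bases, 250 before and 50 after the annotated start (RefSeq, GRCm38.p6), were searched for TAATCC on either strand and for TAATTA, a homeodomain core that is its own reverse complement and shares TAAT with the first motif. The Crx gene itself was listed for retina only, at 1111, 1106 and 1066 CPM, and so was Nrl, the rod-specifying factor, at 2023, 2038 and 1839 CPM (both were named after their values were seen). Windows with TAATCC made up 10.9% of the 522 windows of genes at least 4-fold higher in retina and 12.0% of the 649 windows of retina-only genes. The share was 3.38% of 798 windows for genes at least 4-fold lower, 6.88% of 1206 for brain-only genes, 5.43% of the 12036 windows of all genes tested and 7.06% of all 32851 windows. At 2-fold the shares were 7.5% for higher and 4.34% for lower genes. TAATTA was in 2.87% of the windows of genes at least 4-fold higher and 2.47% of those of retina-only genes. Its share was 2.76% for genes at least 4-fold lower, 3.73% for brain-only genes, 2.58% for all genes tested and 5.29% of all windows. At 2-fold its shares were 3.02% for higher and 2.7% for lower genes. These are counts of letters, with no test, and a match is not a bound site. Of the 25 genes made up of the 15 highest log2 fold changes and the 10 retina-only genes of highest CPM, 16 had a window, 21 windows in all. Windows on 1 chromosome were left out of this count but not of the shares above. A gene counted here as having no window may therefore have lost it in that step. TAATCC was in 4 of these windows, those of Rbp3, Sag and Abca4 and 1 of the 2 windows of Mpp4, and not in the others, Grk1, Rom1, Prph2, Pde6b and Slc24a1 among them. The 150 bases before the start are shown for Rbp3, Sag and Abca4, 5′ to 3′ on the gene's strand, with TAATCC, here read from the other strand as GGATTA, in capitals. They lie at chr14:33953853-33954002, chr1:87803530-87803679 and chr3:122044310-122044459, all on the plus strand, and the motif begins at positions -69, -87 and -58 from the start.
Rbp3: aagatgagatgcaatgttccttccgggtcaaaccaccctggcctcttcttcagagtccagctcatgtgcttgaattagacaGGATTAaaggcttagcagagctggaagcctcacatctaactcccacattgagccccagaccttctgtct
Sag: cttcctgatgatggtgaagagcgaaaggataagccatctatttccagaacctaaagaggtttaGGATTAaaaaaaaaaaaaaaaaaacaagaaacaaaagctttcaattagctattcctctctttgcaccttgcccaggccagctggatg
Abca4: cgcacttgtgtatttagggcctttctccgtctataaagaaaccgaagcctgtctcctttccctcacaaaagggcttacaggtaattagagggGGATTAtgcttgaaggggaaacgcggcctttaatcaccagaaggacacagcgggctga

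Among transcription factors of the retina, 23 of 57 were listed for retina only, and of 28 tested 17 were higher and 6 lower (median 1.77). With at least 50 counts required in all 6 inputs, 23 were left, 12 higher and 5 lower (median 1.04). Otx2, with under 50 counts in brain input 960, was among those lost. Otx2 had 211, 210.1 and 202 CPM in the retina inputs, against 5.63, 6.08 and 4.97 CPM in the brain inputs, and Casz1, a zinc finger factor of photoreceptor development, had 463, 470.2 and 467 CPM in the retina inputs, against 15.01, 12.3 and 18.4 CPM in the brain inputs (log2 fold change 4.94 ± 0.19, adjusted p = 1.86e-05). For neither gene did the groups overlap. Tfap2a, a factor of amacrine cells, was higher by 3.91. Bhlhe22 and Lhx2, which both tissues use, averaged 52.01 ± 5.89 CPM in the retina inputs and 52.3 ± 4.40 CPM in the brain inputs and 46.8 ± 3.35 CPM in the retina inputs and 45.4 ± 4.52 CPM in the brain inputs (SD, n = 3 each), and neither passed the test. Genes of the connecting cilium and of intraflagellar transport, the traffic that supplies the outer segment, were higher in 40 and lower in 6 of 60 cases (median 1.08). Bbs7, of the Bardet-Biedl complex, had 183, 209 and 180.4 CPM in the retina inputs, against 18.1, 18.4 and 17.5 CPM in the brain inputs (log2 fold change 3.40 ± 0.12, adjusted p = 1.55e-05). Cep164, of the distal appendages that dock the basal body, had 352, 315 and 316 CPM in the retina inputs, against 23.2, 21.1 and 17.2 CPM in the brain inputs (log2 fold change 3.99 ± 0.16, adjusted p = 2.15e-05). Lca5 and Arl13b, proteins of the axoneme and of the ciliary membrane, were higher by 3.39 and 3.05. Of the motor subunits, Kif3a, Kifap3 and Kif17 were lower, with log2 fold changes of -1.58, -1.03 and -1.47, and Kif3b was higher with 1.16 (these 4 were chosen after their values were seen). Of 9 tested genes of the Usher and photoreceptor adhesion complexes 6 were higher and 2 lower (1 lower without retina input 421 or 953). Prom1, a protein of membrane protrusions at the outer segment base, had 717, 586 and 707 CPM in the retina inputs, against 10.2, 13.8 and 8.49 CPM in the brain inputs (log2 fold change 5.94 ± 0.24, adjusted p = 2.27e-05). Cdhr1, a cadherin of the same site, and Pcdh15, a protocadherin, were higher by 5.23 and 4.02.

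**Figure D3:**
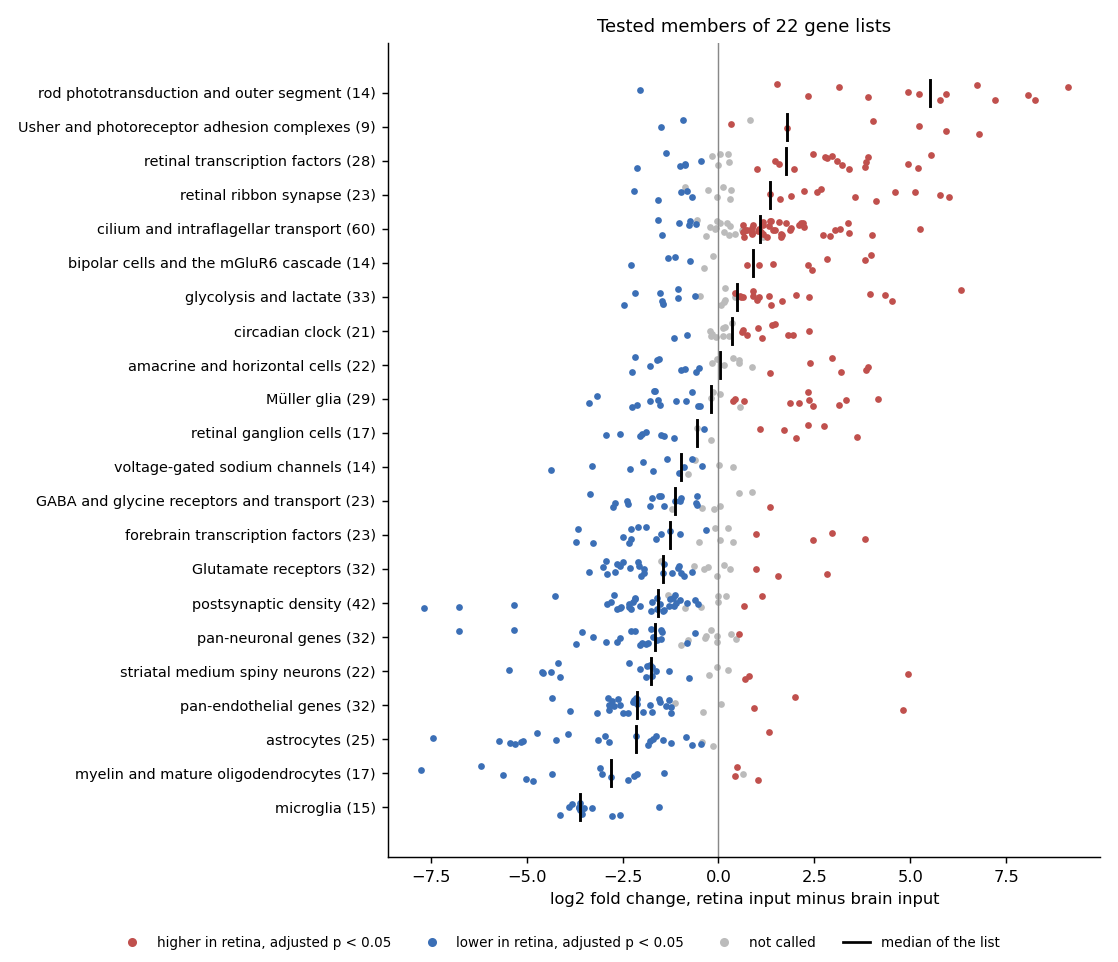
Log2 fold change, retina input minus brain input, of each tested member (points, with the number tested in brackets) of 22 gene lists, with the median of each list as a black bar. Photoreceptor, cilium and ribbon synapse lists lie mostly to the right, and myelin, astrocyte, microglia, endothelial and postsynaptic lists mostly to the left; genes of 1 table are not drawn.

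The release machinery differed member by member. Complexins are small clamps of the fusion complex, and retinal ribbon synapses are known to use Cplx3 and Cplx4. Cplx3 had 456, 454 and 453 CPM in the retina inputs, against 12.7, 12.04 and 14.2 CPM in the brain inputs (log2 fold change 5.13 ± 0.13, adjusted p = 8.24e-06), and Cplx4 was listed for retina only, at 620.1, 629.6 and 596 CPM. Cplx1 had 165, 155 and 175 CPM in the retina inputs, against 869.9, 924 and 747 CPM in the brain inputs (log2 fold change -2.36 ± 0.13, adjusted p = 4.56e-05) and Cplx2 had 314, 336 and 325 CPM in the retina inputs, against 1518, 1350.4 and 2098 CPM in the brain inputs (log2 fold change -2.35 ± 0.19, adjusted p = 0.000167). Syntaxins, the fusion proteins of the target membrane, split too. Stx3, the syntaxin of ribbon synapses, had 846, 778 and 839 CPM in the retina inputs, against 34.2, 39.1 and 28.7 CPM in the brain inputs (log2 fold change 4.59 ± 0.16, adjusted p = 1.55e-05). Stx1a, the syntaxin of conventional synapses, had 14.6, 11.3 and 10.8 CPM in the retina inputs, against 173, 162 and 147 CPM in the brain inputs (log2 fold change -3.72 ± 0.17, adjusted p = 2.69e-05). Unc13b, a priming factor, rose (log2 fold change 4.10 ± 0.28, adjusted p = 9.38e-05), and for its paralogues Unc13a and Unc13c the log2 fold changes were -0.50 and -0.19, with adjusted p = 0.208 and 0.156. Vamp2, the main vesicle SNARE of neurons, had 1032 ± 14.7 CPM in the retina inputs and 1057 ± 48.2 CPM in the brain inputs (SD, n = 3 each; log2 fold change -0.03 ± 0.09). Over the 20 syntaxins, SNAPs, synaptobrevins and their partners 4 were higher and 6 lower, and 6 and 13 without brain input 960. Over all genes tested the shares were 27.4% and 28.8%, and 41.7% and 40.5% without that library.

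Of 23 tested genes of the ribbon synapse list 12 were higher and 5 lower (8 without brain input 960), and another 7 were listed for retina only. Unc119, a carrier of lipid-modified proteins in photoreceptors, had 1876, 1896 and 1666 CPM in the retina inputs, against 29.6, 28.7 and 40.9 CPM in the brain inputs (log2 fold change 5.78 ± 0.20, adjusted p = 1.55e-05), and Egflam, the pikachurin that links photoreceptor and bipolar endings, had 315, 309 and 303 CPM in the retina inputs, against 5.002, 5.13 and 4.12 CPM in the brain inputs (log2 fold change 6.01 ± 0.14, adjusted p = 8.24e-06). Slc17a7, the vesicular glutamate transporter of photoreceptors and of cortical neurons, had 2407, 2427 and 2381 CPM in the retina inputs, against 974, 923 and 466 CPM in the brain inputs (log2 fold change 1.61 ± 0.28, adjusted p = 0.00372). Slc17a8, the transporter of some amacrine cells, was higher by 1.82. Slc17a6, the transporter of ganglion cells and of subcortical neurons, had 78.02 ± 1.91 CPM in the retina inputs and 102 ± 8.82 CPM in the brain inputs (SD, n = 3 each), and its log2 fold change of -0.38 lost its call in every repeat that left out 1 library other than brain input 960. Slc32a1, the transporter of GABA and glycine, had a log2 fold change of -0.59 and lost its call in the same repeats. Sv2b was higher by 1.04, while the synaptotagmins Syt2, Syt5, Syt7, Syt11 and Syt13 were lower by log2 fold changes between -2.79 and -1.05. Syt1 did not pass the test (log2 fold change 0.32 ± 0.19). Of 16 genes of this family 3 were higher (5 without brain input 960) and 10 lower, and 6 were lower without any 1 of the retina inputs.

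Calcium sensors also differed by member. Photoreceptors use recoverin (Rcvrn) and the guanylate cyclase activators Guca1a and Guca1b, which were listed for retina only at 1000.2, 1025 and 972 CPM, 981, 952 and 880.0 CPM and 1852, 1801 and 1659.7 CPM. Cabp4 and Cabp5, calcium-binding proteins of photoreceptor and bipolar endings, were also listed for retina only. Of 15 tested sensors 11 were lower and 1 was higher, 2 without brain input 960 (median -1.81). Hippocalcin (Hpca) had 108, 104 and 106 CPM in the retina inputs, against 589.6, 589 and 366 CPM in the brain inputs (log2 fold change -2.28 ± 0.21, adjusted p = 0.00027), and Hpcal4, Vsnl1, Ncs1 and Ncald were lower with log2 fold changes of -2.64, -2.19, -2.26 and -1.81. Pvalb, a calcium buffer of fast-spiking interneurons and Purkinje cells, had 18.4, 18.9 and 19.00 CPM in the retina inputs, against 167, 153 and 592 CPM in the brain inputs (log2 fold change -4.01 ± 0.60, adjusted p = 0.00199; -3.08 ± 0.07 without brain input 960). The gene called higher with all libraries was Scgn, a sensor of cone bipolar cells, with 64.2, 59.5 and 64.1 CPM in the retina inputs, against 2.49, 3.74 and 6.18 CPM in the brain inputs (log2 fold change 3.99 ± 0.34, adjusted p = 0.000199). Calb2, the calretinin of amacrine and ganglion cells, did not pass the test (log2 fold change 0.39 ± 0.24, adjusted p = 0.21).

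**Figure D4:**
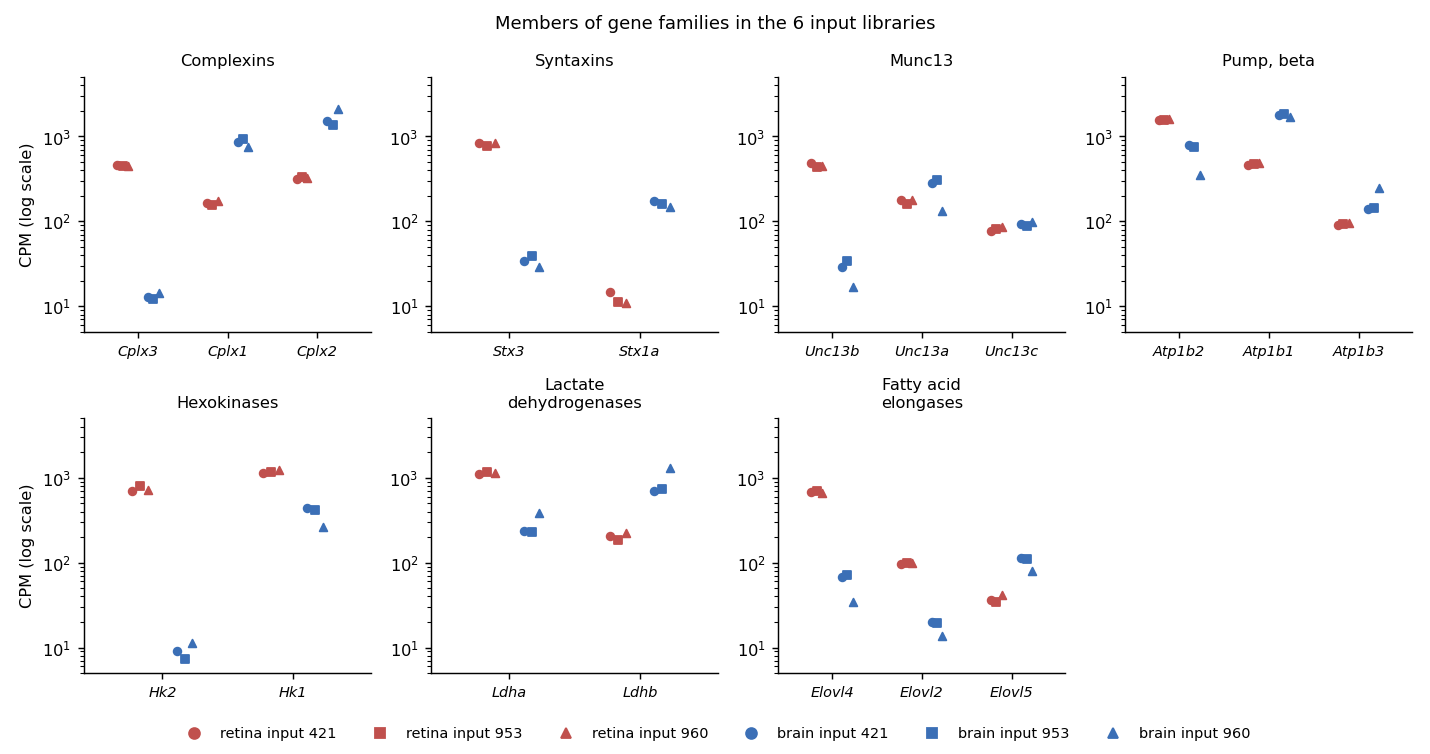
CPM on a log scale of members of 7 gene families in each input library, retina inputs left of brain inputs for each gene; levels of different genes are not length-corrected and are not compared. Cplx3, Stx3, Unc13b, Hk2, Ldha and Elovl4 lie higher in all retina inputs than in any brain input, and Cplx1, Cplx2, Stx1a and Ldhb lower.

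Genes of inner retinal neurons, many of which brain neurons are known to use as well, moved in both directions. Of 25 genes of bipolar cells and the mGluR6 cascade 11 were listed for retina only, among them the receptor Grm6 and its channel Trpm1 at 162, 152 and 167 CPM and 323, 322 and 355 CPM (named after their values were seen). Of 14 tested 8 were higher and 4 lower. Gnb5, the partner of Rgs proteins, Isl1, a factor of ON bipolar and ganglion cells, and Grik1, a kainate receptor of OFF bipolar cells, were higher by 2.32, 3.81 and 2.82. Of 22 amacrine and horizontal cell genes 6 were higher (10 without brain input 960) and 9 lower. Gjd2, the neuronal gap junction connexin that couples AII amacrine cells, had 141, 149.9 and 142 CPM in the retina inputs, against 15.4, 16.04 and 16.1 CPM in the brain inputs (log2 fold change 3.19 ± 0.10, adjusted p = 1.33e-05), whereas Calb1, the calbindin of horizontal cells and of many brain neurons, had 65.9, 63.1 and 60.6 CPM in the retina inputs, against 275, 204 and 371 CPM in the brain inputs (log2 fold change -2.16 ± 0.23, adjusted p = 0.000482). Of 17 ganglion cell genes 6 were higher and 9 lower. Rbpms, an RNA-binding protein of ganglion cells, was higher (log2 fold change 3.62 ± 0.16, adjusted p = 2.69e-05), and Thy1, Tubb3 and Nrn1, which ganglion cells share with brain projection neurons, were lower by log2 fold changes of -1.49, -2.06 and -1.41.

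Glial genes set the tissues apart in both directions. Of 29 tested Müller cell genes 11 were higher and 14 lower. Rlbp1, the retinaldehyde-binding protein of Müller and pigment epithelial cells, had 453, 418 and 410.1 CPM in the retina inputs, against 20.98, 21.7 and 29.3 CPM in the brain inputs (log2 fold change 4.16 ± 0.18, adjusted p = 2.53e-05). Cp, the ferroxidase ceruloplasmin, Col23a1 and Car14, a membrane carbonic anhydrase, were higher by 3.13, 2.46 and 1.85. Vim, the vimentin filament, had 110.1, 108 and 111 CPM in the retina inputs, against 64.8, 59.7 and 82.8 CPM in the brain inputs (log2 fold change 0.67 ± 0.15, adjusted p = 0.00925). Glul, glutamine synthetase, which both Müller cells and astrocytes use, had 2722, 2613 and 2506 CPM in the retina inputs, against 1999, 2035 and 1960.3 CPM in the brain inputs, a log2 fold change of 0.39 ± 0.09 whose call was lost without retina input 421 or 953. Aqp4, the water channel of both glial types, had 169.8, 160.5 and 173 CPM in the retina inputs, against 219, 219 and 113 CPM in the brain inputs. Its groups overlapped and it did not pass the test (log2 fold change -0.13 ± 0.26, adjusted p = 0.68), though it was called lower without brain input 960 (-0.38 ± 0.05). Of 25 tested astrocyte genes 22 were lower and 1 higher (median -2.16), and 6 more were listed for brain only. Fgfr3, a growth factor receptor of astrocytes, had 0.558, 0.497 and 1.43 CPM in the retina inputs, against 158, 165 and 114 CPM in the brain inputs (log2 fold change -7.45 ± 0.43, adjusted p = 5.49e-05; -8.10 without retina input 960). Bcan, the brevican of perineuronal matrix, and Hepacam, an adhesion protein of astrocyte endfeet, were lower by log2 fold changes of -5.14 and -5.10, and Aldh1l1 and Agt by -2.84 and -2.95. S100b had 8.24, 10.9 and 10.9 CPM in the retina inputs, against 260.4, 286 and 1047 CPM in the brain inputs, with brain input 960 highest (log2 fold change -5.72 ± 0.69, adjusted p = 0.000773; -4.74 ± 0.09 without that library). The single higher gene was Atp1b2, a sodium pump subunit described with the pump below.

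Myelin genes were lower in retina or missing from its table. Of 40 genes of myelin and mature oligodendrocytes 22 were listed for brain only, and of 17 tested 13 were lower and 3 higher. Mag, a glycoprotein of the myelin membrane, Mobp, a protein of compact myelin, Olig1, their lineage factor, and Cldn11, the claudin of myelin tight junctions, were among the 10 brain-only genes of highest CPM, with 299, 347 and 249 CPM, 283, 288 and 96.2 CPM, 209, 206 and 229 CPM and 202, 199 and 156 CPM. Cnp, a myelin phosphodiesterase, and Mal and Pllp, small proteins of the myelin membrane, were lower by log2 fold changes of -4.83, -6.20 and -5.01. Apod, a lipocalin of oligodendrocytes and fibroblasts that was not a member of this list, had 0.279, 0.945 and 1.03 CPM in the retina inputs, against 288, 268 and 417 CPM in the brain inputs, the lowest log2 fold change of the genes named (-8.70 ± 0.46, adjusted p = 4.14e-05). Its retina values were all under the level of 50 counts there, which is 2.32 to 3.28 CPM over the own table. Car2, a carbonic anhydrase of oligodendrocytes and of Müller cells, was not called (log2 fold change 0.65 ± 0.23, adjusted p = 0.0527). The count of higher myelin genes was 1 without retina input 953.

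Genes of the excitatory postsynapse were mostly lower in retina. Of 42 tested genes of the postsynaptic density 34 were lower and 2 higher, 1 higher without any 1 of the retina inputs (median -1.56). Camk2a, the kinase of dendritic spines, had 42.9, 35.6 and 41.4 CPM in the retina inputs, against 1983, 1825 and 1027 CPM in the brain inputs (log2 fold change -5.33 ± 0.31, adjusted p = 5.39e-05). Ddn, the dendrin of dendrites and of kidney podocytes, had 4.40, 4.67 and 3.48 CPM in the retina inputs, against 1026, 963 and 571 CPM in the brain inputs (log2 fold change -7.67 ± 0.33, adjusted p = 2.53e-05), and Nrgn, a calmodulin-binding protein of spines, had 14.2, 15.01 and 13.2 CPM in the retina inputs, against 1075, 1116 and 2403 CPM in the brain inputs (log2 fold change -6.76 ± 0.42, adjusted p = 7.13e-05). The lowest brain input was 24.0, 122 and 71.6 times the highest retina input for these 3 genes. Of 32 tested glutamate receptor genes 22 were lower and 3 higher, with Grik1 among the higher and Grm5, Grik4 and Grin3a lower by log2 fold changes of -2.30, -3.02 and -2.03. Of 23 genes of GABA and glycine receptors and transport 16 were lower and 1 higher (19 lower and 3 higher without brain input 960, 2 higher without brain input 953), led by Gabra4 (log2 fold change -3.34 ± 0.13, adjusted p = 1.98e-05). Of 14 sodium channel genes 10 were lower and 4 were not called, with Scn4b, a beta subunit, and Scn2a1 at -4.37 and -2.31. Calcium channels were less uniform, with 3 higher and 7 lower of 16 (11 lower without brain input 960): Cacna1s, an L-type pore subunit, and Cacnb2, the beta subunit of the photoreceptor channel, were higher by 4.18 and 2.22. Of 19 receptors for monoamines, acetylcholine and related modulators 5 were higher (2 without retina input 953) and 11 lower, with the cannabinoid receptor Cnr1 at -3.03.

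Regional genes of the brain were mostly lower in retina. Of 23 forebrain transcription factors 14 were lower and 4 higher, and 16 more were listed for brain only. Tbr1, a factor of deep cortical layers and of some ganglion cells, had 5.51, 5.17 and 3.94 CPM in the retina inputs, against 55.3, 55.6 and 75.7 CPM in the brain inputs (log2 fold change -3.67 ± 0.21, adjusted p = 5.74e-05). Of 23 genes of midbrain, hindbrain and cerebellum 15 were lower and 3 higher (1 without any 1 of the retina inputs). Zic1, a factor of cerebellar granule cells and meninges, and Cbln1, an organiser of their synapses onto Purkinje cells, were lower by log2 fold changes of -4.98 and -3.56. Of 22 striatal genes 16 were lower and 3 higher. Ppp1r1b, the dopamine-regulated phosphatase inhibitor DARPP-32, had 13.9, 12.9 and 13.2 CPM in the retina inputs, against 325, 312 and 338 CPM in the brain inputs (log2 fold change -4.61 ± 0.12, adjusted p = 8.24e-06), in contrast to Rgs9. Of 21 neuropeptides and their processing enzymes 15 were lower and 2 higher (1 higher without any 1 library other than brain input 960). Sst, somatostatin, had 4.75, 4.13 and 5.53 CPM in the retina inputs, against 138, 139 and 361 CPM in the brain inputs (log2 fold change -5.46 ± 0.50, adjusted p = 0.000263; -4.84 ± 0.09 without brain input 960), and the processing enzyme Pcsk2 and the granin-like Vgf were lower by log2 fold changes of -2.46 and -2.25. Immediate early genes, which respond within minutes to activity and to handling, were lower in 17 and higher in 3 of 22 cases. Egr1 had 44.8, 40.3 and 28.4 CPM in the retina inputs, against 291, 326 and 332 CPM in the brain inputs (log2 fold change -3.06 ± 0.20, adjusted p = 8.2e-05), and Btg2 was higher by 2.53. Handling of the tissues cannot be told apart from tissue here.

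Vessel genes did not move together. Of 32 tested pan-endothelial genes 26 were lower in retina and 3 higher (median -2.12). Cd34, a sialomucin of endothelium, Cldn5, the claudin of barrier junctions, and Pecam1, an adhesion protein, were lower, with log2 fold changes of -4.34 ± 0.20, -3.17 ± 0.60 and -1.38 ± 0.21. Cldn5 had 4.89, 4.87 and 4.91 CPM in the retina inputs, against 22.6, 23.9 and 87.5 CPM in the brain inputs, and its log2 fold change was -2.24 ± 0.13 without brain input 960. Kdr, the main signalling receptor for vascular endothelial growth factor and a common endothelial marker, went the other way, with 153, 120.5 and 138 CPM in the retina inputs, against 5.63, 5.32 and 3.27 CPM in the brain inputs (log2 fold change 4.81 ± 0.24, adjusted p = 3.51e-05). The lowest retina input was 21.4 times the highest brain input. The summed level of the other 31 genes was 208, 194 and 233 CPM in the retina inputs and 471, 466 and 675 CPM in the brain inputs. Flt1, the decoy receptor for the same ligand, and Nos3, endothelial nitric oxide synthase, were the other higher genes, at 1.98 ± 0.21 and 0.92 ± 0.18 (chosen after their values were seen). Many of these genes were near or below the listing minimum in the inputs. With at least 50 counts required in all inputs of at least 1 tissue, 20 of the 32 were left, 15 lower and 3 higher. By the listing rule, the rest were in both tables only through the positive fraction, the pull-down. With at least 50 counts required in all 6 inputs, 12 were left, 8 lower and 2 higher. The genes lost between these 2 steps were listed for 1 of the tissues only through the positive fraction. Kdr was among them, with under 50 counts in brain input 960 (3.27 CPM). Of 19 tested genes of the VEGF, angiopoietin and hypoxia list 8 were higher and 7 lower. Hif1a, the oxygen-regulated factor, had 600.3, 622 and 583 CPM in the retina inputs, against 94.8, 87.5 and 103 CPM in the brain inputs (log2 fold change 2.66 ± 0.12, adjusted p = 2.53e-05), and Vegfa, its known target and the ligand of Kdr, had 218, 205 and 235 CPM in the retina inputs, against 87.9, 99.5 and 67.4 CPM in the brain inputs (log2 fold change 1.36 ± 0.17, adjusted p = 0.000871; chosen after its values were seen). Pdgfb, the endothelial signal to pericytes, was lower by a log2 fold change of -4.01.

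**Figure D5:**
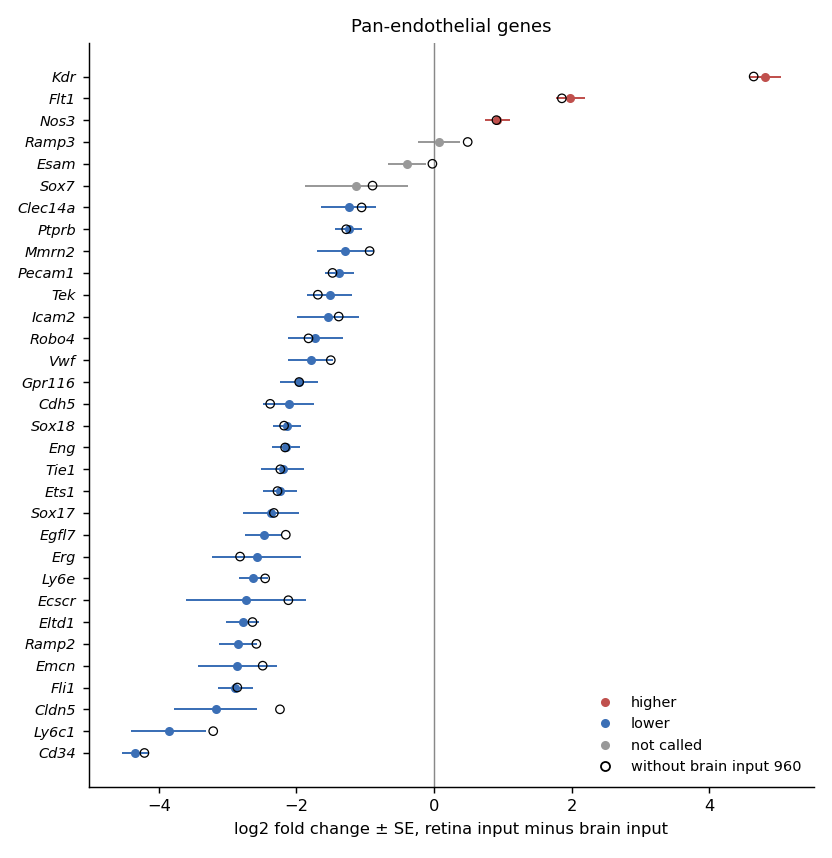
Log2 fold change with its SE, retina input minus brain input, of the 32 tested pan-endothelial genes, in order of size; open circles give the value without brain input 960. The called genes Kdr, Flt1 and Nos3 (red) lie to the right of 0 and the 26 genes called lower (blue) to the left, with and without that library; grey points were not called.

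Barrier and Wnt pathway genes were lower in 17 and higher in 7 of 31 cases. With at least 50 counts required in all inputs of at least 1 tissue, 26 were left, 13 lower and 7 higher. Mfsd2a, the lipid transporter of barrier endothelium, had 0.977, 1.44 and 1.65 CPM in the retina inputs, against 24.7, 25.1 and 24.01 CPM in the brain inputs (log2 fold change -4.16 ± 0.21, adjusted p = 3.78e-05), and the Wnt factor Lef1 was lower by a log2 fold change of -3.22. Tfrc, the transferrin receptor, was higher by 1.40. Of 7 tested mural cell genes 2 were higher and 4 lower (median -0.62), 5 lower without brain input 960 (median -1.07) and 2 lower without retina input 953 or 960, and 6 more were listed for brain only. Vtn, the vitronectin gene of the mural list, had 1000.5, 998 and 928 CPM in the retina inputs, against 80.8, 76.9 and 80.6 CPM in the brain inputs (log2 fold change 3.62 ± 0.11, adjusted p = 1.06e-05), while Mcam was lower by a log2 fold change of -2.75. Which retinal cells the Vtn counts came from was not tested. All 15 tested microglial genes were lower, with a median of -3.60, and 7 more were listed for brain only. With at least 50 counts required in all 6 inputs, 8 of the 15 were left, all 8 lower. By the listing rule, the rest were listed for 1 of the tissues only through the positive fraction. Cx3cr1, the fractalkine receptor, had 5.58, 5.62 and 6.05 CPM in the retina inputs, against 55.7, 56.2 and 101 CPM in the brain inputs (log2 fold change -3.62 ± 0.29, adjusted p = 0.000161), and the complement genes C1qa, C1qb and C1qc were lower by log2 fold changes of -3.91, -3.60 and -3.49. Haemoglobin genes, markers of red cells, were lower in retina. Hba-a1 had 3.91, 14.02 and 15.6 CPM in the retina inputs, against 157, 306 and 951 CPM in the brain inputs (log2 fold change -5.39 ± 0.92, adjusted p = 0.00325; -4.31 ± 0.30 without brain input 960). The summed level of 5 erythroid genes was 121, 145 and 143 CPM in the retina inputs against 521, 941 and 2893 CPM in the brain inputs. Red cell genes were highest in brain input 960, and the part of blood in other differences was not tested.

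Genes of glucose use were higher in retina more often than lower. The retina is known for turning glucose into lactate even with oxygen present. Of 33 tested genes of glycolysis and lactate 17 were higher and 8 lower (median 0.50), and their summed level was 21971, 22065 and 22007 CPM in the retina inputs against 13800.0, 13771 and 15839 CPM in the brain inputs. Hk2, the hexokinase of photoreceptors, had 703, 803 and 725 CPM in the retina inputs, against 9.19, 7.32 and 11.4 CPM in the brain inputs (log2 fold change 6.33 ± 0.22, adjusted p = 1.55e-05), and Hk1, the hexokinase of most neurons, was higher by 1.66. Pfkfb2, which makes the activator of phosphofructokinase, had 769, 744 and 767 CPM in the retina inputs, against 52.8, 57.2 and 37.6 CPM in the brain inputs (log2 fold change 3.95 ± 0.19, adjusted p = 3.25e-05). Slc16a3, a lactate carrier, and Slc16a6, a member of the same carrier family, were higher by 4.34 and 4.52. Lactate dehydrogenase differed by subunit. Ldha had 1121, 1181 and 1125 CPM in the retina inputs, against 235, 229.6 and 385 CPM in the brain inputs (log2 fold change 2.01 ± 0.23, adjusted p = 0.00061) and Ldhb had 204, 186 and 221 CPM in the retina inputs, against 706, 742 and 1292 CPM in the brain inputs (log2 fold change -2.17 ± 0.26, adjusted p = 0.000826). Hk1, Ldha and Ldhb were named after their values were seen. Tpi1, an enzyme of the same pathway, had 818 ± 17.3 CPM in the retina inputs and 784 ± 221 CPM in the brain inputs (SD, n = 3 each) and did not pass the test.

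The sodium pump, which maintains the gradients behind the dark current of photoreceptors and restores those of neurons, differed between its beta subunits. Atp1b2, the beta subunit of photoreceptor inner segments and of astrocytes, had 1559, 1561 and 1614 CPM in the retina inputs, against 798, 753 and 351 CPM in the brain inputs (log2 fold change 1.31 ± 0.31, adjusted p = 0.0118), and Atp1b1 had 463, 481 and 492 CPM in the retina inputs, against 1784, 1851 and 1699 CPM in the brain inputs (log2 fold change -1.89 ± 0.10, adjusted p = 3.8e-05). Of 15 tested genes of the pump, its regulators and calcium pumps 1 was higher and 11 lower, 2 and 13 without brain input 960. Lipid genes split as well, with 9 higher and 13 lower of 25. Adipor1, an adiponectin receptor needed for docosahexaenoic acid in photoreceptors, had 748, 788 and 746 CPM in the retina inputs, against 79.7, 84.3 and 80.8 CPM in the brain inputs (log2 fold change 3.22 ± 0.10, adjusted p = 1.3e-05). Elovl4 and Elovl2, elongases of very long polyunsaturated fatty acids, were higher by 3.54 ± 0.29 and 2.47 ± 0.17, and Elovl5, an elongase of shorter chains, was lower by a log2 fold change of -1.43 ± 0.18 (these 3 were chosen after their values were seen). Fabp5, a fatty acid carrier, was lower by a log2 fold change of -2.01.

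Clock genes and RNA-binding proteins moved in part. Of 21 clock genes 10 were higher and 2 lower (5 without brain input 960, 1 without any 1 of the retina inputs). Arntl, the BMAL1 subunit of the clock activator, had 110.2, 125 and 118 CPM in the retina inputs, against 38.3, 35.7 and 25.6 CPM in the brain inputs (log2 fold change 1.82 ± 0.17, adjusted p = 0.000326), and Per3, Cry1 and Rora were higher by 1.95, 1.12 and 2.36. The sources used here do not give the hour of tissue collection. Of 28 splicing and RNA-binding genes of neurons 9 were higher and 14 lower. Elavl2 and Qk, the quaking protein of glia, were lower by log2 fold changes of -1.82 and -1.83. Pcbp4, a poly(C)-binding protein, was higher by 1.88.

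The counts of housekeeping classes depended on which library was left out and on the method of the fit. The summed level of 76 cytosolic ribosomal protein genes was 14627, 14923 and 13563 CPM in the retina inputs against 15062, 15424 and 46041 CPM in the brain inputs. Of these 3 were lower and 73 not called (median -0.92), against 10 higher and 33 lower (median -0.10) without brain input 960, and 1 was lower without any 1 retina input, 15 without brain input 421 and 11 without brain input 953. For the 76 nuclear-encoded genes of the respiratory chain the sums were 8915, 8994 and 8331 CPM in retina and 12554, 12861 and 29953 CPM in brain. Of these genes 48 were lower and 1 higher (median -1.31), 67 and 3 without brain input 960 (median -0.61), while 8 to 10 were lower without any 1 retina input, with medians of -1.33 to -1.25. Ndufs1, of complex I, and Uqcrc2, of complex III, had 120.1, 120.0 and 117 CPM in the retina inputs, against 186, 183 and 186 CPM in the brain inputs and 139.6, 135 and 130.3 CPM in the retina inputs, against 229, 238 and 209 CPM in the brain inputs (log2 fold change -0.63 ± 0.09, adjusted p = 0.00176 and log2 fold change -0.74 ± 0.10, adjusted p = 0.00153). Of 31 proteasome genes 7 were lower and 24 not called, and without brain input 960 24 were lower and 3 higher. Without any 1 retina input 1 to 2 were lower, without brain input 421 14 and without brain input 953 13. The genes in which brain input 960 departed most from the other brain inputs were Samd11, Plekhh2, Mpp4, AY512931 and Gm11127 upward and Wdfy2, Kif13b, Slc9a7, Gabbr2 and Zkscan16 downward. Gabbr2, a GABA-B receptor subunit, had 57.9, 62.8 and 72.00 CPM in the retina inputs, against 227, 198 and 17.2 CPM in the brain inputs, so the brain inputs lay on both sides of the retina inputs.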

How the data were processed

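RNA was sequenced from 6 input libraries, 3 of retina and 3 of brain, grouped by their titles. The raw columns hold expected counts that the authors deposited unrounded (93.2% of retina and 88.9% of brain values differ from a whole number by over 0.001), and they were rounded before the fit. DESeq and the build mm10 are named in the submitters' processing notes. The software for alignment and counting is not given in the sources used here. The listing rule (a raw value of at least 50) is per the file headers. The 18 other per-sample columns were not used.

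Counts of the 11618 shared genes were fitted in edgeR 4.0.16 (R 4.3.3) with TMM scaling, filterByExpr, tissue as the only term and 4 residual degrees of freedom, by the quasi-likelihood F test, with Benjamini-Hochberg adjustment over 11611 genes. Calls need an adjusted p under 0.05, and ± after a log2 fold change is the SE. DESeq2 1.42.0 was an alternative. The fit was also run on simulated counts with few changed genes, the same dispersion for all genes and no library set apart. That run cannot show how the fit behaves with a library such as brain input 960. Of 51 gene lists with 1384 different members, 1232 members were matched by symbol and 4 by an older symbol, and 148 were in neither table, among them the mitochondrially encoded genes, which were not analysed here. Named genes were the 15 highest and 15 lowest log2 fold changes among stable calls with a mean of at least 10 CPM, up to 4 called (lowest adjusted p) and 2 uncalled (highest level) members per list, fixed markers, the 10 highest genes of each single table, members of 5 families, and the 5 genes at each end of the brain input 960 ratio. Some genes that this rule names, members of the families among them, are not reported here. Members and lists were chosen with earlier results of these data known. The series' design text calls the libraries biological replicates. Promoter letters are from RefSeq.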

Additional observations from a re-analysis of the deposited data

How the results depend on the processing

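Each comparison was repeated under 16 alternatives. The count of genes higher in retina was 3187 and moved by more than 1.5 times in 1 repeat, to 4840 without brain input 960. Leaving out 1 library gave 2419 to 4840 higher and 2418 to 4699 lower genes, and 1635 to 1826 and 1833 to 2237 at 2-fold. The other alternatives gave 2707 to 3527 higher and 2715 to 3761 lower genes. Scaling by library size alone shifted the median log2 fold change by 0.107 and gave 3384 higher and 3001 lower. With the replicate number as a block, 2707 genes were higher and 2715 lower, 1806 and 1976 at 2-fold. The labels do not say what the replicate numbers mark, so they were not taken to pair libraries. Deviations of same-numbered libraries from their tissue means correlated at -0.029, -0.123 and -0.173. These values cannot decide the pairing, because deviations within a tissue are tied to each other and brain input 960 stood apart. Of 2615 repeats of the 165 tested genes named, 17 lost and 20 gained a call and none (0) turned round. The cause of these changes was not tested. List counts moved by more than 1.5 times in 107 of 1600 repeats, 17 of them without brain input 960.

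Limits are the 3 libraries per tissue, the lower depth of brain input 960 (9596740 counts) and the listing rule, which hides genes below it in either tissue. The main fit made no check on single outlying values. Input RNA has no cell-type resolution, and tissue cannot be told apart from the way each tissue was dissected and homogenised.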
